A study of Mus musculus with 12 samples.

Results

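The 10 genes described here encode parts of the basement membrane, the thin sheet of matrix under an epithelium, and secreted products of the parietal endoderm. They were chosen by name, with earlier results of these data known. They are the collagen IV chains Col4a1 and Col4a2, the laminin chains Lama1, Lamb1 and Lamc1, and the linker proteins Nid1 (nidogen) and Hspg2 (perlecan). The others are the matrix glycoprotein Sparc, the proteoglycan core protein Srgn (serglycin), and Plat (tissue plasminogen activator). All 10 were measured, through 21 of the 45101 probe sets on the Mouse Genome 430 2.0 array, and they are 10 of the 18193 genes tested. Each gene was read through its probe set with the highest mean over the 12 arrays, and its other probe sets are given beside it.

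The yolk sac, an extraembryonic membrane around the embryo, was profiled at embryonic day 8.5 (E8.5) and E10.5 in wild type mice and in Z/Norrin mice, called Norrin here, which made the secreted Frizzled4 ligand Norrin ectopically from a conditional over-expression allele. Each of the 4 groups had 3 arrays, each array was a pool of the yolk sacs of 3 to 5 embryos, and all groups were of mixed gender on a mixed C57Bl6/129 background. How, when and in which cells the allele was activated, and whether the wild type embryos carried it in silent form, are not given in the labels. The values are log2 expression values, so a difference of 1 is a 2-fold change. Within a group the arrays correlated at r = 0.975 to 0.992 over the 18193 genes, each read through its 1 chosen probe set. The array medians, over all probe sets, lay between 6.59 and 6.73 at E8.5 and between 6.97 and 7.01 at E10.5. The probe set of Ndp, the Norrin gene, had group means from 4.49 to 4.59 (Norrin effect at E10.5 0.00, limma adjusted p = 0.999). Whether it covers the transcript of the allele is not given, so it checks no label. Afp and Ttr, secreted products of the visceral endoderm that mark the yolk sac, lay at 12.99 or above in every array. In whole tissue, fewer cells of a type and less RNA per cell cannot be told apart.

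A basement membrane is built on networks of collagen IV and of laminin. Collagen IV is a triple helix of alpha chains, most widely of the chains from Col4a1 and Col4a2, and laminin is a trimer of an alpha, a beta and a gamma chain, in the early embryo mainly those of Lama1, Lamb1 and Lamc1. Nidogen and perlecan bind the networks to each other, and Sparc binds collagen. In the rodent conceptus the parietal endoderm lays down Reichert's membrane, an unusually thick basement membrane, and cells that turn into parietal endoderm are known for making collagen IV, laminin, Sparc and tissue plasminogen activator in quantity. The visceral endoderm of the yolk sac has a basement membrane of its own, and endothelial cells also make collagen IV and laminin, so none of these genes belongs to 1 cell type alone.

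On mouse build GRCm38.p6 the genes lie, by RefSeq, at chr8:11198423-11312889 (Col4a1), chr8:11312805-11449287 (Col4a2), chr17:67697127-67822645 (Lama1), chr12:31265146-31329644 (Lamb1), chr1:153218922-153332786 (Lamc1), chr13:13437602-13512275 (Nid1), chr4:137468751-137570630 (Hspg2), chr11:55394159-55420080 (Sparc), chr10:62493833-62527445 (Srgn) and chr8:22757722-22782848 (Plat). Col4a1 and Col4a2 stand head to head: the start used for Col4a2, on the plus strand, is base 11312805, and that of Col4a1, on the minus strand, is base 11312826. The stretch around both starts (chr8:11312801-11312830, plus strand, RefSeq) is shown because the 2 genes moved together in the arrays. The capitals mark the 22 bases from the start used for Col4a2 to that used for Col4a1, both included. The RefSeq span of Col4a1 reaches further, to base 11312889, so the annotated genes overlap beyond the capitals.
Col4a1 and Col4a2 starts: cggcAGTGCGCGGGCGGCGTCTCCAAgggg

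Promoter windows were matched for 7 of the 10 genes, and those of Lama1, Lamc1 and Plat were not analysed here. The 250 bases before the start are shown for Srgn, which rose at E10.5, and for Nid1, which did not pass the test at either stage (chr10:62527446-62527695, minus strand, and chr13:13437352-13437601, plus strand). In Srgn the capitals mark TATAAA, 98 bases before the start, and ATTGT, the reverse complement of the SOX core ACAAT, 37 bases before it. In Nid1 they mark ATTGG, the reverse complement of the CCAAT box, and the GC box GGGCGG.
Srgn: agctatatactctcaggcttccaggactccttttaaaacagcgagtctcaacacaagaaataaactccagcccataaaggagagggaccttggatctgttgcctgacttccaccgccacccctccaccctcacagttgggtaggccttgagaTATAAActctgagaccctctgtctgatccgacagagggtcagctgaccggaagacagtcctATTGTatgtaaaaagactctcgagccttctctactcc
Nid1: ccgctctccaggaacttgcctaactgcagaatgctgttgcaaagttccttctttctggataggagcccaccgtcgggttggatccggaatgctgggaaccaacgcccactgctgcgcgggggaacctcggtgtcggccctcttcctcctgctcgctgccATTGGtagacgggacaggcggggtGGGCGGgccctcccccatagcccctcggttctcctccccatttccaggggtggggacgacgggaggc

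Letters were searched on both strands. GGGCGG stood before Col4a2 (2 copies), Lamb1 (2 copies), Nid1 (1 copy) and Hspg2 (5 copies), and 32.7% of 32851 windows of this length hold it. CCAAT stood once before each of Col4a1, Col4a2, Lamb1 and Nid1, and 33.8% of windows hold it. TATAAA (12.4% of windows) and ACAAT (27.7%) were found before the first Srgn start only, and the HIF core ACGTG (16.6%) before the second Srgn start only. The TCF/LEF core CTTTGA (13.8%) and the GATA core AGATAA (9.99%) were in none of the windows. These matches are a description of the letters.

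At E10.5, Plat, Srgn, Col4a2 and Col4a1 were higher in Norrin yolk sacs, by 4.43-fold, 2.51-fold, 2.34-fold and 1.53-fold, and no member was lower past the threshold. In limma's test with Benjamini-Hochberg adjustment over 18193 genes, 4 of 10 members rose, against 1.85% of all genes (4.07% in either direction). At an unadjusted p under 0.05 there were 6, against 14% of all genes, and in 7 all Norrin pools lay above all wild type pools, against 11.4%. Every member had a log2 difference above 0, with a median of 0.70, against -0.00 over all genes. At E8.5, 0 of 10 passed, against 0.077% of all genes. There 3 members had an unadjusted p under 0.05 in the same limma fit, against 7.22% of all genes, and in 3 all Norrin pools lay above all wild type pools, against 5.89%. At this stage, 8 of 10 differences were above 0, and the median was 0.34, against -0.02 over all genes.

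Arrays of 1 stage that bear the same replicate number tended to deviate together, some pairs only weakly. The numbers were therefore also fitted as a block within the stage, a pairing that the labels do not give. With the block, 7 of 10 members rose at E10.5, against 6.39% of all genes, since Lama1, Lamb1 and Sparc then passed too. At E8.5 the block left 0 of 10, against 1.41% of all genes.

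**Figure D1:**
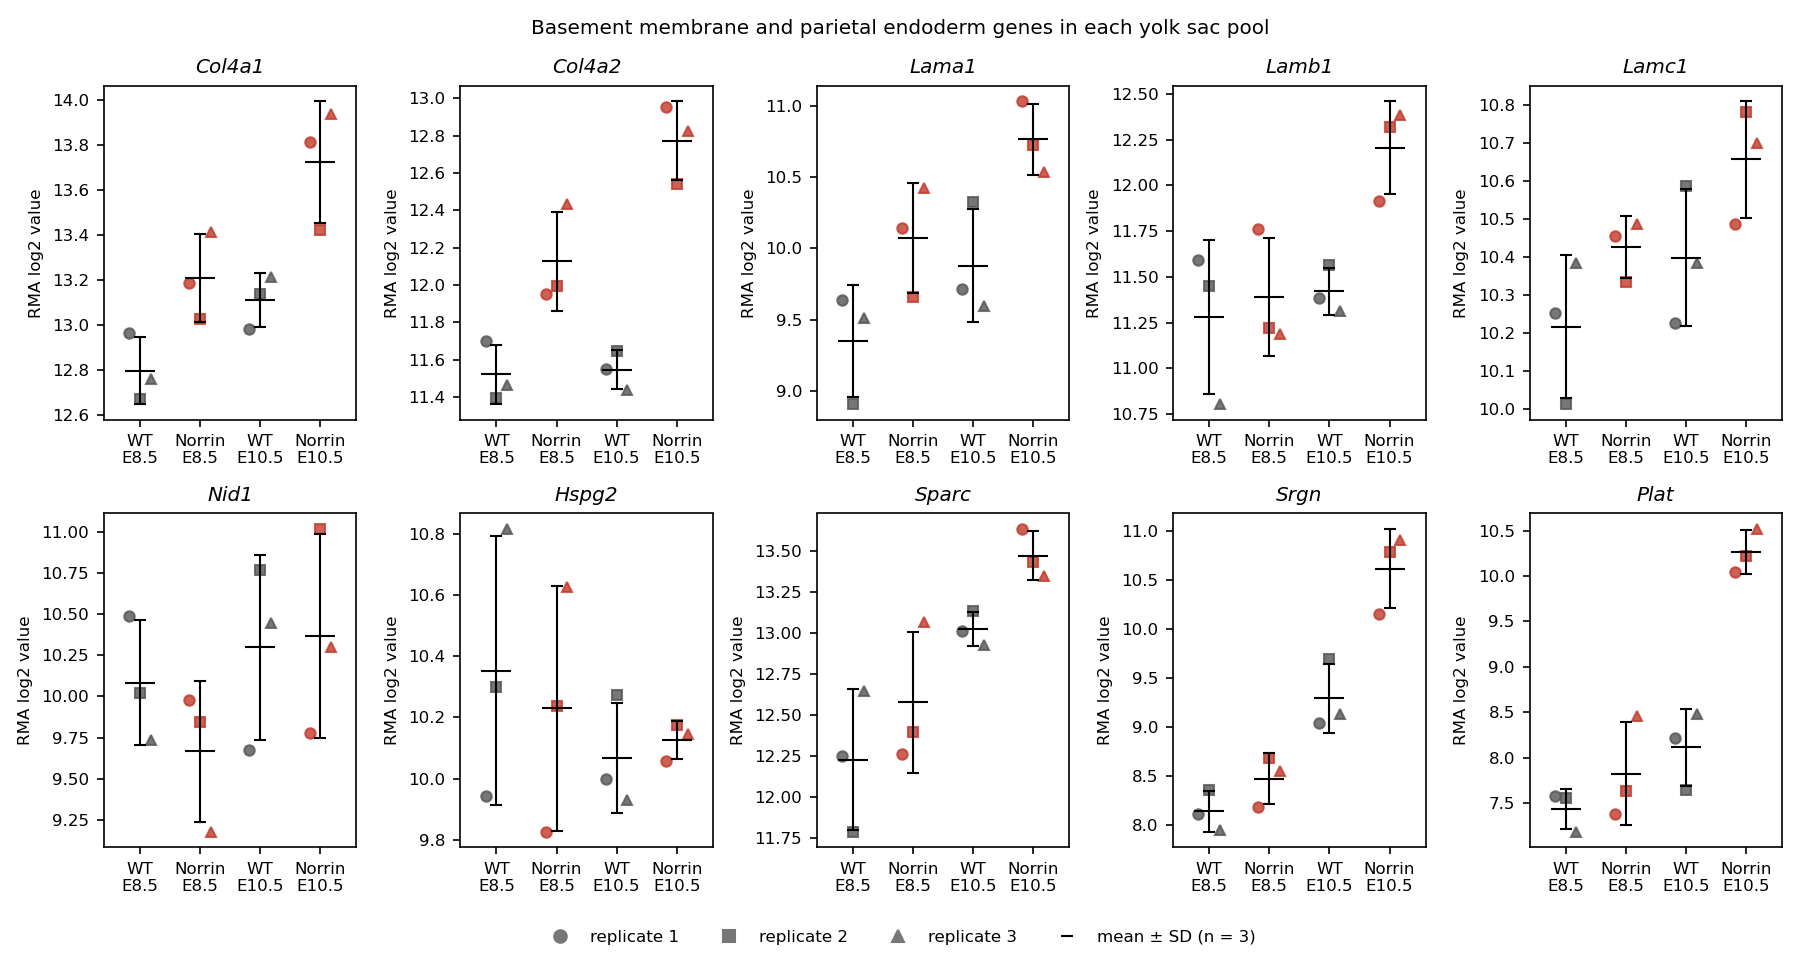
RMA log2 value (y axis) of each of the 10 genes in each of the 12 yolk sac pools, by group (x axis); marker shape gives the replicate number, and black bars give the mean ± SD (n = 3). At E10.5 the 3 Norrin pools lie above the 3 wild type pools for Col4a1, Col4a2, Lama1, Lamb1, Sparc, Srgn and Plat, and the groups overlap for Lamc1, Nid1 and Hspg2.

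Col4a1, a chain of the main collagen IV helix, read 12.98, 13.14 and 13.22 in the wild type pools at E10.5 (replicates 1 to 3; mean 13.11 ± 0.12, SD, n = 3) and 13.82, 13.42 and 13.94 in the Norrin pools (13.73 ± 0.27). All 3 Norrin values were above all 3 wild type values. The difference was 0.62 on the log2 scale (SE 0.16, adjusted p = 0.0483, limma; 0.0145 with the block). This call lay at the threshold: it held under 8 of 24 other settings. Of the fits that each left out 1 array, it held only without Norrin E8.5 replicate 3 and without Norrin E10.5 replicate 2, and the adjusted p was highest, 0.229, without Norrin E10.5 replicate 3. Its other probe set gave 0.69 (SE 0.29, adjusted p = 0.319).

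Col4a2, the partner chain, read 11.55, 11.65 and 11.44 in wild type at E10.5 (11.55 ± 0.10, SD, n = 3) and 12.95, 12.54 and 12.83 in Norrin (12.77 ± 0.21). The groups were apart by more than their spread, and the difference of 1.23 (SE 0.16) passed with an adjusted p of 0.00143 in limma. It passed in 23 of 23 other settings, with values from 1.14 to 1.34. At E8.5 both collagen chains already lay higher in each Norrin pool than in each wild type pool. Col4a1 read 12.96, 12.67 and 12.76 in wild type and 13.19, 13.03 and 13.42 in Norrin, and Col4a2 read 11.70, 11.40 and 11.47 against 11.95, 11.99 and 12.43. Neither E8.5 difference (0.41 and 0.60, SE 0.16 for both) passed the adjustment (0.620 and 0.347, limma).

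The laminin alpha chain gene Lama1 read 9.71, 10.33 and 9.59 in wild type at E10.5 and 11.03, 10.73 and 10.54 in Norrin, without overlap. Its difference of 0.89 (SE 0.26) had an adjusted p of 0.0841 in limma and 0.0079 with the block. It passed in 3 of 23 other settings: the block, array weights (0.0147) and the fit without wild type E10.5 replicate 2 (0.0497). At E8.5 it read 9.63, 8.90 and 9.51 in wild type and 10.14, 9.66 and 10.42 in Norrin, again without overlap, and the difference of 0.72 (SE 0.26) had an adjusted p of 0.597 (0.0703 with the block).

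The laminin beta chain gene Lamb1 was close between genotypes at E8.5, with 11.59, 11.45 and 10.80 in wild type and 11.76, 11.22 and 11.19 in Norrin (difference 0.11, SE 0.22). At E10.5 the wild type pools read 11.39, 11.56 and 11.31 and the Norrin pools 11.92, 12.32 and 12.38, so all Norrin values were higher. That difference was 0.79 (SE 0.22) and had an adjusted p of 0.0727 in limma and 0.0072 with the block. It passed in 6 of 26 other settings, among them the block, joint quantile normalisation (0.0376) and the fit without wild type E8.5 replicate 3 (0.0250). Of its other probe sets, 2 gave 0.83 and 0.63 at E10.5, and a dim one, with a mean of 5.60, gave 0.19.

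The laminin gamma chain gene Lamc1 showed the smallest difference of the 3 laminin chains at E10.5, 10.23, 10.59 and 10.38 in wild type against 10.49, 10.78 and 10.70 in Norrin, with overlapping groups. The difference was 0.26 (SE 0.14, adjusted p = 0.471, limma; 0.0834 with the block), and 0.40 in its other probe set. At E8.5 it was 0.21 (SE 0.14, adjusted p = 0.742).

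The genes for the linkers between the networks did not pass the test at either stage. Nid1 read 9.67, 10.77 and 10.45 in wild type at E10.5 and 9.78, 11.02 and 10.30 in Norrin, a spread within each group far above the difference between them (0.07, SE 0.35). Replicate 1 was the low pool in both genotypes. At E8.5, Nid1 was lower in Norrin in each pair of one replicate number, with differences of -0.51, -0.18 and -0.56 (mean difference -0.42, SE 0.35, adjusted p = 0.784; 0.105 with the block). Its next brightest probe set went the other way at E8.5, with 0.27 (SE 0.23). Hspg2 read from 9.93 to 10.27 in wild type and from 10.06 to 10.18 in Norrin at E10.5 (difference 0.06, SE 0.23, 95% interval -0.43 to 0.55). Its other probe set gave 0.03.

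Sparc, which encodes a collagen-binding glycoprotein made in quantity by parietal endoderm, read 13.01, 13.13 and 12.92 in wild type and 13.64, 13.43 and 13.35 in Norrin at E10.5, without overlap. The difference of 0.45 (SE 0.23) had an adjusted p of 0.433 in limma and of 0.0446 with the block, and the pairs of one replicate number differed by 0.63, 0.30 and 0.42. A second bright probe set gave 0.42, and a dimmer one, with a mean of 7.77, gave 0.00. At E8.5, Sparc ranged from 11.78 to 12.64 in wild type and from 12.26 to 13.07 in Norrin (difference 0.35, SE 0.23).

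Srgn encodes serglycin, a small proteoglycan of secretory granules that parietal endoderm cells also secrete. It read 9.04, 9.69 and 9.13 in wild type at E10.5 (9.29 ± 0.35, SD, n = 3) and 10.15, 10.78 and 10.91 in Norrin (10.61 ± 0.41). The highest wild type pool stayed below the lowest Norrin pool, and the difference of 1.33 (SE 0.23) had an adjusted p of 0.00676 in limma. It passed in 23 of 23 other settings. At E8.5 the groups overlapped, with 8.11, 8.35 and 7.94 in wild type and 8.18, 8.68 and 8.55 in Norrin (0.34, SE 0.23, adjusted p = 0.750). The array holds 1 probe set for this gene alone, so no second reading was made.

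Plat, the gene for the protease that turns plasminogen into plasmin, differed most among the members at E10.5. The wild type pools read 8.22, 7.65 and 8.48 (8.11 ± 0.42, SD, n = 3) and the Norrin pools 10.04, 10.22 and 10.52 (10.26 ± 0.24). The difference was 2.15 (SE 0.27, adjusted p = 0.00140, limma), and every pair of one replicate number differed by at least 1.82. At E8.5 the wild type pools read 7.57, 7.55 and 7.18 and the Norrin pools 7.37, 7.64 and 8.46, so the genotypes overlapped and replicate 3 alone stood clear (difference 0.39, SE 0.27, adjusted p = 0.751). A dimmer Plat probe set, at 5.29 to 6.47 in all pools, gave -0.05 at E10.5 (SE 0.20, adjusted p = 0.981). It was the 1 of 24 other settings in which Plat did not pass.

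**Figure D2:**
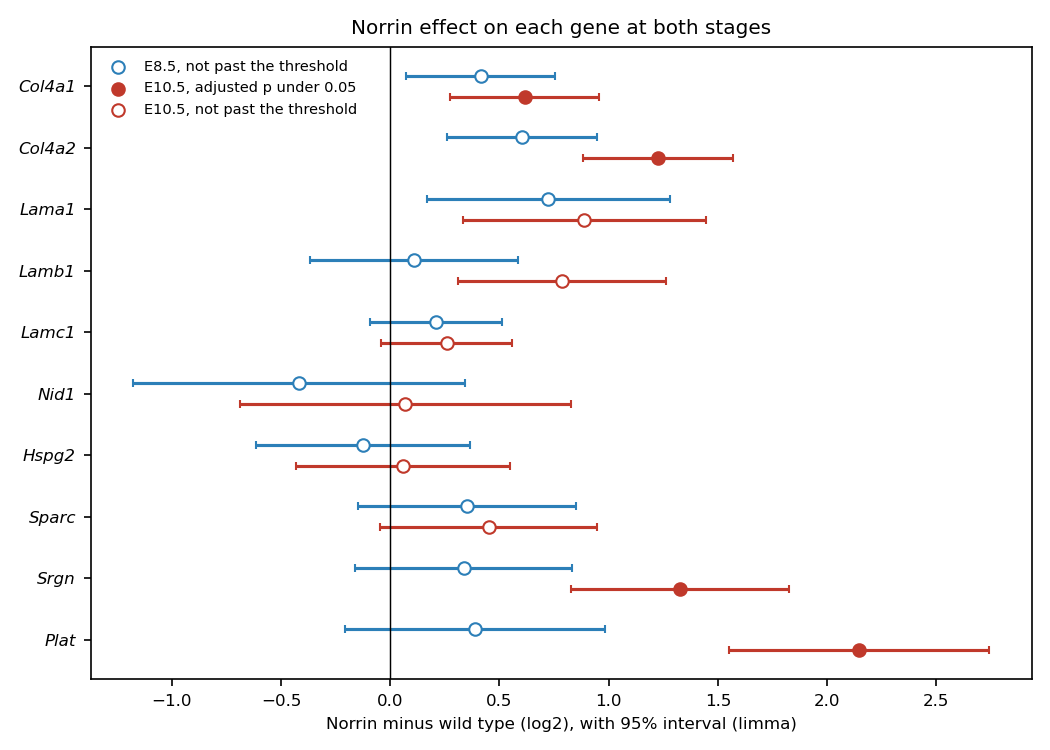
Norrin minus wild type (x axis, log2, with the 95% interval of limma) for each gene (y axis) at E8.5 and E10.5; filled points passed an adjusted p of 0.05. Filled points are Col4a1, Col4a2, Srgn and Plat at E10.5, and no point is filled at E8.5.

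**Figure D3:**
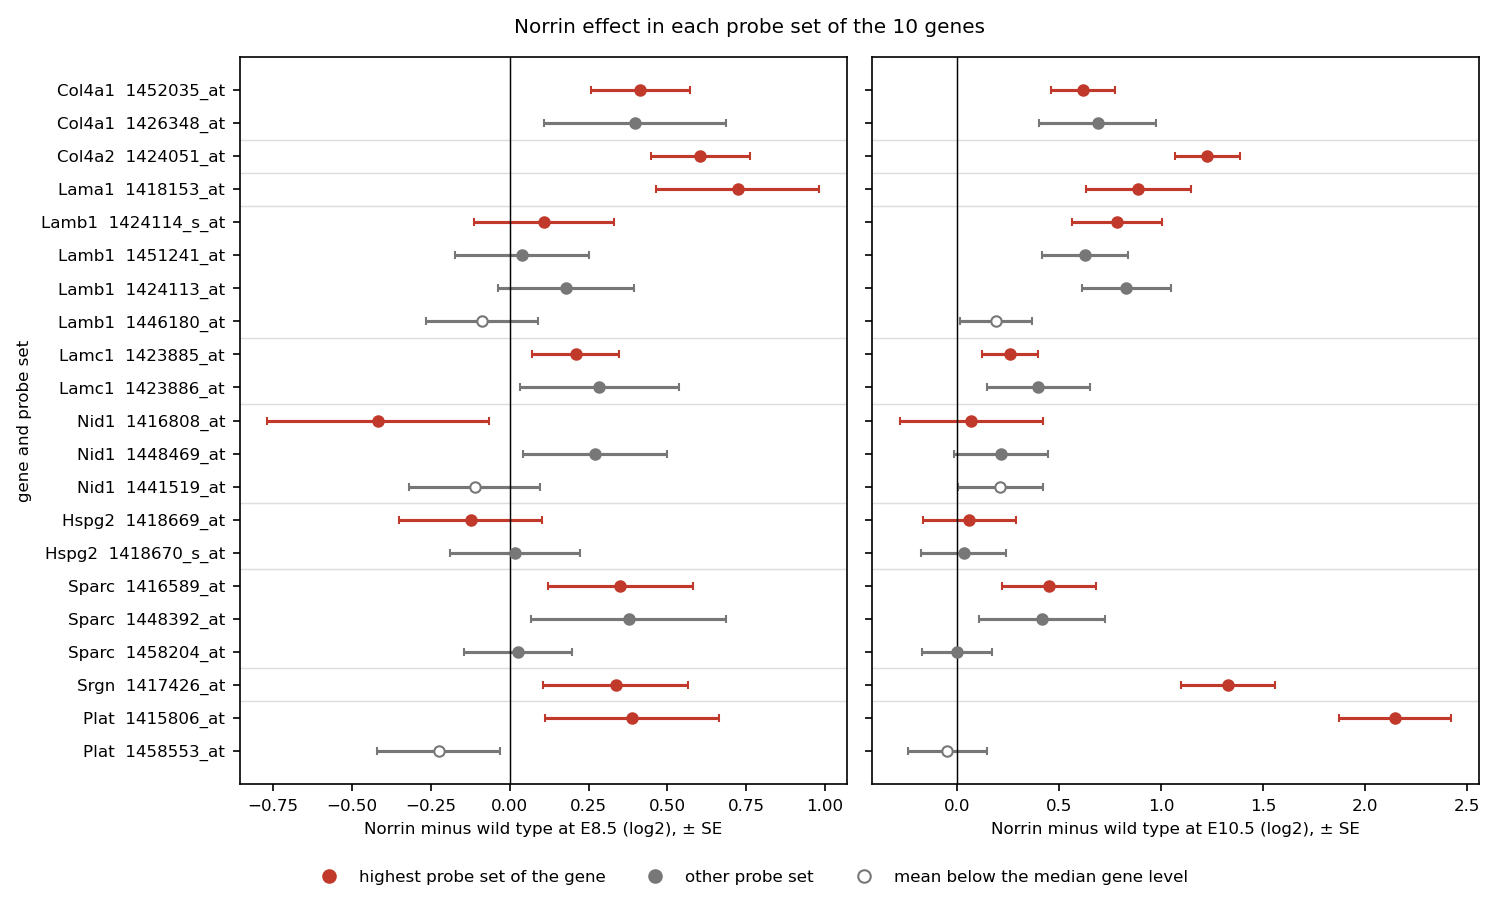
Norrin minus wild type (x axis, log2, ± SE of limma) for each of the 21 probe sets of the 10 genes (y axis) at E8.5 and E10.5; red marks the probe set with the highest mean, and open points have a mean below the median gene level of 7.68. The bright probe sets of Col4a1, Lamb1 and Sparc gave like values, while the dim ones of Plat (-0.05 at E10.5) and Lamb1 (0.19) stood near 0.

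The Norrin effects at the 2 stages were compared by the interaction, the E10.5 effect minus the E8.5 effect. In limma 0 of 10 members passed, against 0.0934% of all genes, and 4 had an unadjusted p under 0.05, against 7.01%. All 10 differences of effect were above 0, with a median of 0.34, against 0.03 over all genes. Plat had the greatest of them, 1.76 (SE 0.39, adjusted p = 0.145), and it passed with the block (0.0467), where 2.07% of all genes passed. The value for Srgn was 0.99 (SE 0.32, adjusted p = 0.421; 0.0581 with the block), for Lamb1 0.68 (0.709) and for Col4a2 0.62 (0.487). For Col4a1 it was 0.20, with a 95% interval from -0.28 to 0.68.

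Development from E8.5 to E10.5 was read in each genotype. The arrays of each stage were taken, from identical values shared only within a stage, to have been normalised in a run of their own; on that reading, a stage difference and a run difference cannot be told apart. The median of all genes moved by 0.14 in wild type and by 0.15 in Norrin. In wild type, 2 of 10 members rose, against 25.4% of all genes: Srgn by 1.15 (SE 0.23, adjusted p = 0.00244, limma) and Sparc by 0.80 (SE 0.23, adjusted p = 0.0189). Sparc no longer passed without wild type E8.5 replicate 2 (0.0834) or without wild type E10.5 replicate 2 (0.0640). Plat differed by 0.68 (adjusted p = 0.0766) and Col4a2 by 0.03 (0.922). The median over the members was 0.26.

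In Norrin, 7 of 10 members rose from E8.5 to E10.5, against 28.2% of all genes. Plat rose by 2.44 (SE 0.27, adjusted p = 4.7e-05, limma) and Srgn by 2.15 (SE 0.23, adjusted p = 3.4e-05). Without the Norrin pools of replicate 2 at both stages, which stand apart in trophoblast markers, 4 of 10 rose, against 18.0% of all genes. Sparc (0.83, adjusted p = 0.0763, limma), Lamb1 (0.67, 0.121) and Lama1 (0.50, 0.271) did not pass in that fit. In the fit of all 12 arrays, Sparc rose by 0.90, Lamb1 by 0.82, Lama1 by 0.69 (adjusted p = 0.0499), Col4a2 by 0.65 and Col4a1 by 0.52. Nid1 (0.70), Lamc1 (0.23) and Hspg2 (-0.10) did not pass, and the median over the members was 0.70. In its next brightest probe set Nid1 passed in both genotypes, with 0.79 in wild type (adjusted p = 0.0208, limma) and 0.73 in Norrin (0.0258). In Norrin the other probe set of Col4a1 gave 0.64 (0.101), and those of Lamb1 gave 0.91 (0.0064), 0.49 (0.0465) and 0.44 (0.122). Col4a1 did not hold without Norrin replicates 1 or 2 at E8.5 or 1 or 3 at E10.5 (adjusted p up to 0.0938), and Lama1 held in 3 of 12 fits that left out 1 array (up to 0.195). With each array centred on its median, 2 of 10 rose in Norrin, against 12.9% of all genes. In wild type, 1 then rose (Srgn), against 12.9% of all genes, and 1 fell (Hspg2, -0.58), against 26.5%. Of the genes called, the share that was higher went with centring from 78.1% to 32.7% in wild type and from 74.4% to 28.3% in Norrin. With all 12 arrays quantile-normalised together, 2 rose in wild type, against 16.0% of all genes, and 6 in Norrin, against 16.8%. Of the genes called, 46.3% and 46.0% were then higher. The Norrin arrays of this comparison are also those of the comparisons with wild type.

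The members were also compared with each other over the 12 arrays after each stage's mean was removed, so that genotype and pool are what the values share. Col4a1 and Col4a2 had a Pearson r of 0.930, Col4a2 and Lama1 0.869, Col4a2 and Plat 0.887, and Srgn and Plat 0.834. Nid1 and Hspg2 stood apart from Col4a1, with r of -0.25 and -0.03. Outside the list, the genes most like Col4a2 were Col9a1 (0.985), Epas1 (0.975) and Aqp8 (0.974), and those most like Col4a1 were Col9a1 (0.928), Ttc5 (0.916) and Rb1cc1 (0.913). Most like Srgn were Scaper (0.962), Ccng2 (0.941) and Klf4 (0.920), and most like Plat were Tent2 (0.939), Wnk3 (0.938) and Flt1 (0.936). These correlations describe 12 arrays in 4 groups.

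The other genes of the same machinery were read from lists drawn up by function, with earlier results of these data known. Their counts describe the lists and are not independent support. Over all genes, 1.85% rose and 2.22% fell at E10.5, and with the block 6.39% rose and 6.8% fell. At E8.5, 0.055% rose and 0.022% fell, and with the block 0.803% rose and 0.61% fell. These shares stand beside the counts of every list and marker set below. Among 20 measured further basement membrane genes, 2 rose at E10.5 and 0 fell, and the median was -0.02. Nid2, the second nidogen, rose by 1.04 (SE 0.21, adjusted p = 0.0166, limma), and Lama4, a laminin alpha chain of vessel walls, rose by 0.74 (SE 0.15, adjusted p = 0.0159). The collagen IV chain genes Col4a5 (0.41, adjusted p = 0.770) and Col4a6 (0.08) and the laminin genes Lama5 (-0.24) and Lamb2 (-0.06) did not pass. At E8.5 none of the 20 passed, and 2 rose and 1 fell at E10.5 with the block.

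Of 18 measured genes that modify or fold collagen and laminin, 4 rose at E10.5 and 0 fell, with a median of 0.37. They were P4ha1, a subunit of the enzyme that hydroxylates collagen prolines (1.22, SE 0.14, adjusted p = 0.000691, limma), Plod2, a collagen lysyl hydroxylase (1.31, SE 0.19, adjusted p = 0.00299), P3h2, a prolyl 3-hydroxylase of collagen IV (1.27, SE 0.21, adjusted p = 0.00582), and Kdelr3, a receptor that returns proteins to the endoplasmic reticulum (1.16, SE 0.22, adjusted p = 0.0106). With the block, 9 rose and 1 fell. Serpinh1, the collagen chaperone, gave 0.20, and P4hb, the partner subunit of the prolyl hydroxylase, gave -0.05. At E8.5 none passed (2 rose with the block), and P4ha1 gave 0.73 (adjusted p = 0.0933).

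Of 15 matrix receptor genes, 0 rose and 1 fell at E10.5, Itgb5, an integrin beta chain (-0.66, SE 0.13, adjusted p = 0.0139, limma), and the median was -0.10. Itgb1, the beta chain of most laminin and collagen receptors, gave 0.49 (adjusted p = 0.0912). With the block 1 rose and 1 fell, and at E8.5 0 rose and 0 fell (1 fell with the block).

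Around Plat, 14 genes of the plasminogen system and of matrix proteolysis were measured, and 2 rose and 1 fell at E10.5. Plg, the gene for the plasminogen that tissue plasminogen activator cleaves, fell by 1.97 on the log2 scale (SE 0.32, adjusted p = 0.00516, limma), opposite in sign to Plat. The protease inhibitor gene Timp3 rose by 1.75 (SE 0.34, adjusted p = 0.0131) and the secreted protease gene Adamts1 by 0.98 (SE 0.18, adjusted p = 0.0104). Plau, for the other plasminogen activator, gave -0.01, and its receptor gene Plaur 0.10. With the block, 4 rose and 3 fell, and at E8.5 0 rose and 0 fell (2 fell with the block).

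Of 9 measured relatives of Sparc and partners of serglycin, 3 rose at E10.5 and 0 fell, with a median of 0.53. Sparcl1, a Sparc relative, rose by 1.54 (SE 0.29, adjusted p = 0.0101, limma). The chondroitin sulfate enzyme genes Chst11 (0.69, adjusted p = 0.00462; 0.45 in its other probe set) and Csgalnact1 (0.74, adjusted p = 0.0436; 0.17 in its other, dim probe set) rose as well. With the block 7 rose, and at E8.5 0 passed in either fit.

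Among 19 further genes of parietal endoderm, 4 rose at E10.5 and 0 fell, with a median of 0.20. They were the transcription factor gene Sox17 (2.97, SE 0.36, adjusted p = 0.00107, limma), Pth1r, the receptor of parathyroid hormone-related protein (2.45, SE 0.43, adjusted p = 0.00685), Pdgfra, a receptor tyrosine kinase gene (1.89, SE 0.32, adjusted p = 0.00651), and the intermediate filament gene Vim (0.54, SE 0.13, adjusted p = 0.0350). Sox17 was the 1 gene of this list that rose at E8.5 (2.71, SE 0.36, adjusted p = 0.0171), where 4 rose with the block. Other genes known from parietal endoderm did not pass at E10.5, among them Thbd (-0.49), Snai1 (-0.09), Fst (0.14), Krt8 (0.14), Krt18 (-0.07), Dab2 (0.20), Gata6 (0.49) and Gata4 (0.91, adjusted p = 0.0518). The block gave 6 that rose and 1 that fell.

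**Figure D4:**
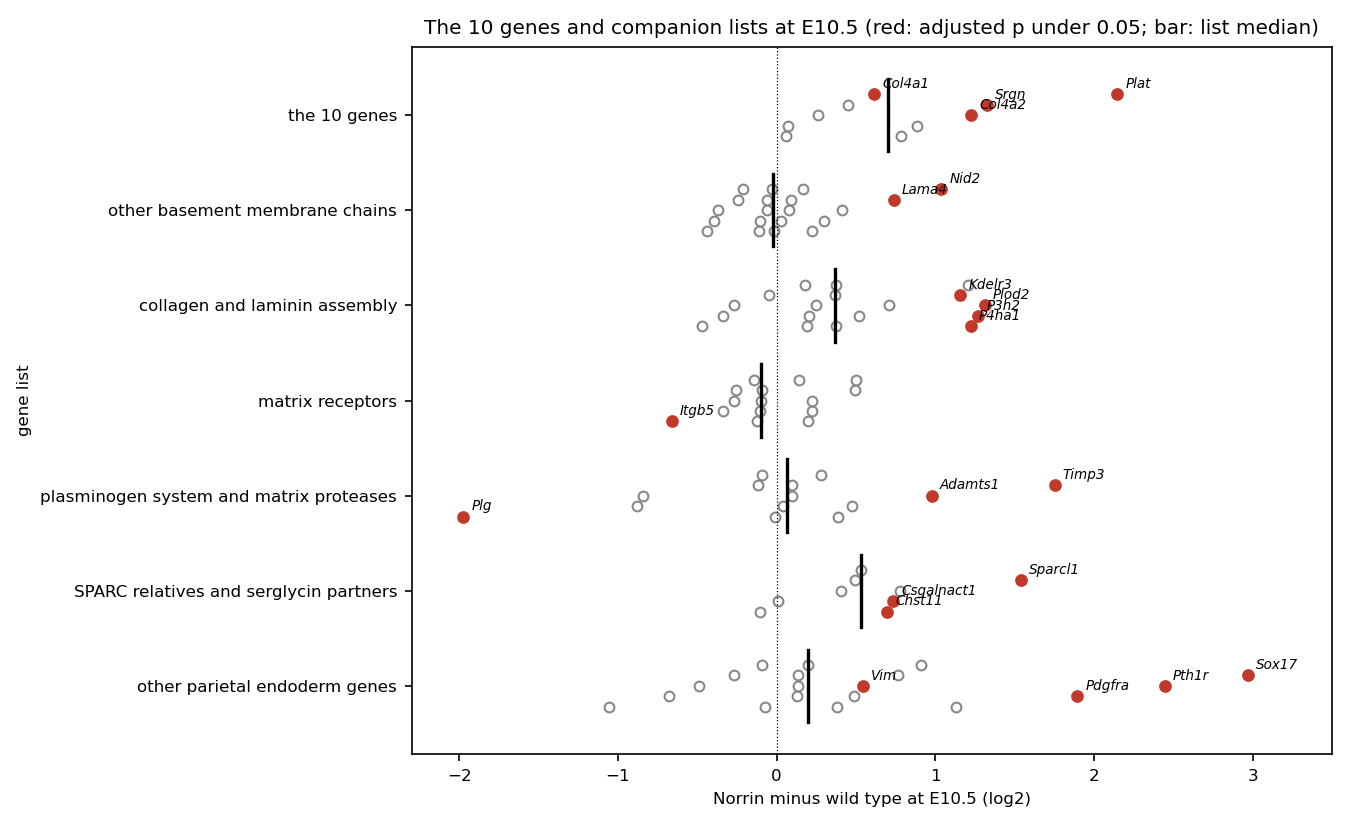
Norrin minus wild type at E10.5 (x axis, log2) of each gene of the 10-gene list and of the companion lists (y axis); bars give the median of each list, and filled red points with names passed an adjusted p of 0.05. The median is 0.70 for the members, 0.37 for collagen and laminin assembly and -0.10 for the matrix receptors.

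Markers of other cells of the dissection were read beside these values. Of 12 visceral endoderm markers, 3 fell at E10.5 (Apoa1 with -0.78, Apoa4 with -0.94 and Hnf4a with -0.71) and 7 fell with the block, the median was -0.53, and their summed linear level ranged from 147552 to 160285 in wild type and from 115201 to 123457 in Norrin. At E8.5, 1 fell (Apoa4, -1.18; 4 with the block), and the ranges were 135793 to 145100 and 95983 to 117538. The summed level of the list was thus lower in every Norrin pool than in every wild type pool of its stage. Of the 12 single markers, 11 had a difference below 0 at each stage, with Lrp2 above 0 at E8.5 and Amn at E10.5. The part of this list in the members' differences was not tested.

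Of 6 measured trophoblast markers (of 10 listed), 0 passed and all 6 differences were above 0 at E10.5, with a median of 0.81. Their summed level ranged from 1181 to 2108 in wild type and from 2213 to 8822 in Norrin at E10.5, and from 1583 to 1877 and from 1774 to 4647 at E8.5. Norrin replicate 2 stood apart at both stages: the summed level of the markers was 4647 in it at E8.5 and 8822 at E10.5, and Tpbpa read 11.90 in it and 5.63 to 6.55 in the other E10.5 pools. Without both of these pools, a setting chosen after seeing the data, the same 4 members rose at E10.5, against 1.18% of all genes, with Col4a1 at 0.77 (adjusted p = 0.0255, limma), Col4a2 at 1.34 (0.00372), Srgn at 1.24 (0.0362) and Plat at 2.17 (0.00818). At E8.5 0 members passed without them, against 0.0055% of all genes. The Norrin E10.5 pools kept in that fit, replicates 1 and 3, had summed trophoblast levels of 2558 and 2213, still above every wild type pool of that stage. The part of trophoblast tissue in the members' differences was not tested.

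Of 8 decidua markers, 0 passed at E10.5 and 6 were above 0 (median 0.42; 3 rose and 1 fell with the block). Their mean log2 level lay from 8.26 to 8.33 in wild type and from 8.50 to 8.93 in Norrin, and the summed level from 12330 to 13013 and from 11668 to 13398. The brightest marker, Igfbp4, weighs most in the sum, and its mean was 13.11 in wild type and 12.74 in Norrin. Prl8a2, a prolactin-family gene of the decidua, read 6.98, 7.70 and 7.55 in wild type and 9.84, 7.24 and 10.23 in Norrin at E10.5. Norrin replicates 1 and 3, high in Prl8a2, were the E10.5 pools kept in the fit without Norrin replicate 2. The part of decidual tissue in the members' differences was not tested. The mean level of the 8 endothelium markers ranged from 8.18 to 8.75 in wild type and from 8.28 to 8.75 in Norrin at E10.5, with 0 called (median 0.03; 1 rose with the block). The mean level of the 8 mesenchyme markers ranged from 10.71 to 10.88 in wild type and from 10.95 to 11.03 in Norrin at E10.5, with 0 called (median 0.20; 1 rose with the block), and of 8 blood and platelet markers 1 fell (Itga2b, -0.45; 2 with the block).

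**Figure D5:**
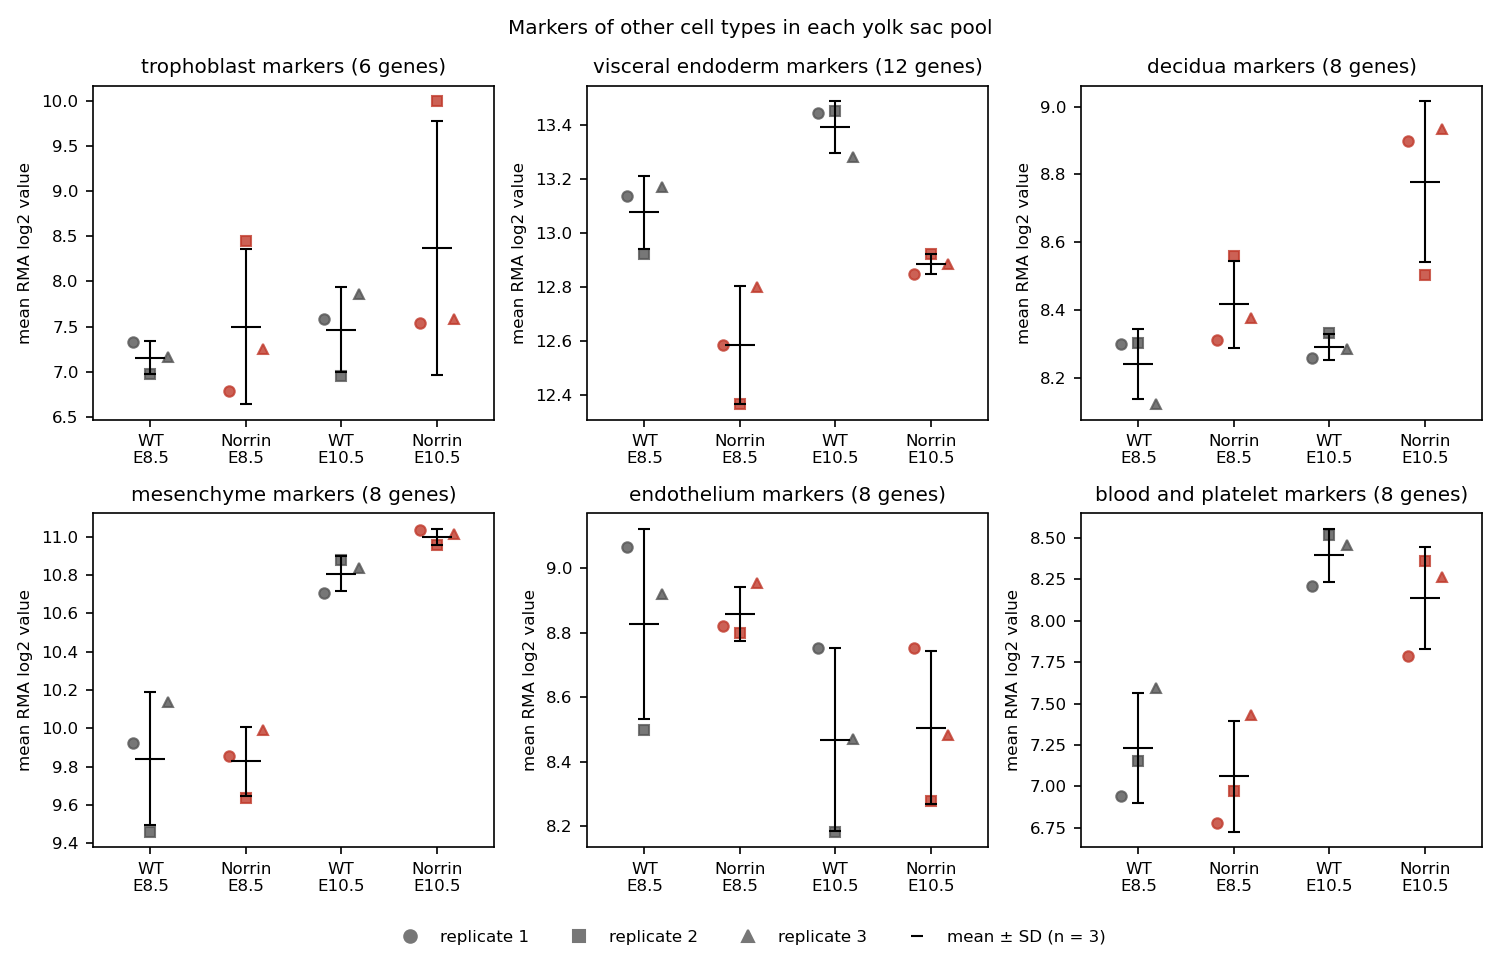
Mean log2 level (y axis) of the marker lists in each of the 12 pools, by group (x axis); marker shape gives the replicate number and black bars the mean ± SD (n = 3). The visceral endoderm list is lower in each Norrin pool than in each wild type pool of its stage, and Norrin replicate 2 is the high pool of the trophoblast list at both stages (8.45 at E8.5).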

How the data were processed

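Total RNA (Trizol and RNeasy) was labelled with biotin and hybridised to Affymetrix Mouse Genome 430 2.0 arrays, per the labels. For each array the authors deposited log2 values; RMA is the tool in the submitters' processing notes. It corrects background, quantile-normalises arrays and summarises probe sets, which compresses low values. Array pairs within a stage shared 26 to 93 identical values and pairs across stages 0, so each stage was taken as its own RMA run. With arrays, their number limits the precision.

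Of 45101 probe sets, 34945 mapped to 1 gene in the platform annotation; the others, with 64 controls, were left out. The probe set with the highest mean stood for a gene (18193 genes). Genes were tested with limma 3.58.1 (R 4.3.3; lmFit, then contrasts.fit and eBayes) with 1 mean per group over 12 arrays (8 residual and 4.17 prior degrees of freedom), two-sided, Benjamini-Hochberg adjusted over all genes of each of 5 contrasts, threshold 0.05. The fit was also run on simulated data with independent noise in each array. Those data lack the shared deviations of same-numbered arrays, so they do not test the fit for them. The replicates are separate pools; litter and batch were not given.

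Same-numbered arrays of a stage tended to deviate together over all genes (r of their deviations from the group means 0.73, 0.32 and 0.73 at E8.5, and 0.51, 0.21 and 0.22 at E10.5). Pairs of unlike number had r up to 0.30 at E8.5 and up to 0.16 at E10.5. The replicate numbers were taken to pair the pools, a pairing read from the data and not from the labels. Alternatives were replicate blocks, median centring, joint quantile normalisation, a filter at the median gene level (7.68), an intensity trend, array weights, a fit per stage, other probe-set rules and leaving out each array. Named genes were all members, up to 4 called genes per companion list and Norrin contrast, defining markers, and the 3 genes most like each called member; other companion genes (such as Serpinh1, Plau or Krt8) were named for their function after their values were seen. The members, lists and tests were chosen with earlier results of these data known. Promoter letters and positions are RefSeq's on GRCm38.p6.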

Additional observations from a re-analysis of the deposited data

Results flagged for a closer look

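Adamts1, a secreted matrix protease gene of the plasminogen and protease list, differed in its Norrin effect between the stages. At E8.5 it read 9.48, 9.57 and 9.42 in wild type and 9.14, 8.99 and 8.43 in Norrin, and at E10.5 it read 9.42, 8.90 and 9.07 in wild type and 10.05, 10.24 and 10.02 in Norrin. All Norrin pools were below the wild type pools at E8.5 and above them at E10.5. The effect at E10.5 minus that at E8.5 was 1.62 (SE 0.26, limma adjusted p = 0.0463), and it passed in 6 of 22 other settings, with adjusted p from 0.00025 to 0.137 and values from 1.40 to 1.76. Of the fits that each left out 1 array, it passed only without wild type E8.5 replicate 3 (0.0458) or Norrin E8.5 replicate 3 (0.0462). The replicate block within the stage gave 0.0133.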

How the results depend on the processing

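The count of members that rose at E10.5 was 4 and became 7 with the replicate block within the stage (2400 genes in all, 13.2%, against 741, 4.07%). It was 5 with joint quantile normalisation (5.12% of all genes called) and 6 with array weights (12.7%). With centring (3.78%), the filter at the median gene level (5.19%) or the probe set of largest interquartile range (3.40%) it was 3. Leaving out single arrays gave 3 to 4 at E10.5, 0 to 0 at E8.5 and 0 to 1 for the interaction (1, Plat, without Norrin E8.5 replicate 3). It gave 1 to 3 for the wild type stages (1 without wild type E8.5 replicate 2) and 5 to 7 for the Norrin stages. The calls over all genes then ranged from 353 to 894 at E10.5 (1.94% to 4.91%) and from 1 to 20 at E8.5 (0.0055% to 0.110%). For the interaction they ranged from 5 to 36 (0.0275% to 0.198%). The ranges were 4311 to 6285 (23.7% to 34.5%) for the wild type stages and 5242 to 7629 (28.8% to 41.9%) for the Norrin stages. Array weights gave 5 at E8.5, where 5147 genes in all (28.3%) were then called, against 0.077% in the main fit. They gave 4 in the interaction, with 2728 genes in all (15.0%), against 0.0934% in the main fit. In the wild type stage comparison they gave 7 (6 higher and 1 lower), with 10797 genes in all (59.3%), and in the Norrin stages 9, with 64.0% of all genes. The block gave 1 in the interaction (376 genes in all, 2.07%). In the Norrin stage comparison, centring gave 2 (45.6% of all genes called) and leaving out the trophoblast-high pools 4 (21.2%). The block across both stages gave 0, 4, 0, 2 and 6 for the 5 comparisons, against 0.0275%, 3.98%, 0.0715%, 33.9% and 39.4% of all genes; the block within a stage was not run for the stage comparisons, since the numbers do not link pools across stages. The block within the stage changed no call of a member beyond those given with the genes, and the block across both stages lost Lama1 in the Norrin stages (adjusted p = 0.0635, limma).

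Differences changed sign as follows, none past the threshold unless said, and the cause was not tested. With array weights, Lamb1 was -0.19 at E8.5, Nid1 -0.012 at E10.5, Lamc1 -0.018 and Sparc -0.12 in the interaction, and Lamb1 -0.068 in the wild type stages. With centring, Lamc1 was -0.011 in the interaction, Col4a2 -0.27, Lamb1 -0.16, Lamc1 -0.12 and Nid1 -0.083 in the wild type stages, and Lamc1 -0.13 in the Norrin stages. With other probe-set rules or probe sets, Hspg2 was 0.016 at E8.5, 0.18 (mean of probe sets) and 0.64 (adjusted p = 0.0267 and 0.0334, limma) in the wild type stages, and 0.28 and 0.66 (0.0220 and 0.0268) in the Norrin stages. Lamb1 was then -0.088 at E8.5 and -0.15 in the wild type stages, Nid1 0.27 at E8.5 and -0.055 in the interaction, Plat -0.22 at E8.5 and -0.048 at E10.5, and Sparc -0.025 in the interaction, -0.28 in the wild type stages and -0.31 in the Norrin stages. Without the trophoblast-high pools, Nid1 was -0.26 at E10.5, and Lama1 -0.025 and Lamc1 -0.060 in the interaction. Leaving out single arrays gave ranges that crossed 0 for Lamb1 (-0.13 to 0.26) and Hspg2 (-0.33 to 0.11) at E8.5, for Nid1 (-0.26 to 0.36) and Hspg2 (-0.0087 to 0.16) at E10.5, for Lama1 (-0.044 to 0.39), Lamc1 (-0.037 to 0.15), Hspg2 (-0.048 to 0.39) and Sparc (-0.11 to 0.34) in the interaction, for Col4a2 (-0.038 to 0.12), Lamb1 (-0.10 to 0.29) and Nid1 (-0.021 to 0.53) in the wild type stages, and for Hspg2 (-0.30 to 0.096) in the Norrin stages. Over all genes, a Norrin effect had a standard error of 0.16 at the median, which limits what 3 pools per group can show.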
